A study of Mus musculus with 2 samples.

Results

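The tumour necrosis factor (TNF) ligand and receptor superfamilies were described in single cells of mouse tumours. Members were every gene whose symbol begins with Tnfsf or Tnfrsf followed by a number, together with Tnf, Lta, Ltb, Ltbr, Cd27, Cd40, Cd40lg, Cd70, Fas, Fasl, Eda2r and Ngfr. This gave 44 of the 32285 genes in the files: 26 receptors, 17 ligands and the antisense RNA Tnfsf13os. MC38, an established colon carcinoma line of the mouse, was grown as tumours in C57BL/6 hosts. One library came from tumour tissue of MC38 cells overexpressing the Wnt enhancer R-spondin 3 (genotype MC38-RSPO3-OE, here RSPO3-OE) and 1 from tumour tissue of control MC38 cells (MC38-Ctrl, here Ctrl). The labels call both tissues xenografts although line and host are both mouse, and the labels state neither age, harvest time, number of mice nor whether each line was 1 clone. With 1 library per group there is no replicate check and no test, library and genotype cannot be told apart, and every interval given is a 95% interval that covers counting error only.

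TNF family ligands are mostly trimeric membrane proteins that can be shed, and they act by clustering their receptors on the same or a neighbouring cell. One group of receptors carries a death domain and can start apoptosis through FADD and caspase-8, while others recruit TRAF proteins and activate NF-kB. In tumours the families are known for killing by T cells and NK cells, for the inflammatory output of macrophages, and for costimulation of T cells through OX40, GITR, CD27 and CD137.

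Members were read in 3 cell classes whose rules use no member. Tumour cells held no UMI (a tag that marks 1 captured RNA molecule) of the leukocyte gene Ptprc and at least 1 of Hmga2, an oncofetal chromatin gene. They numbered 4229 in RSPO3-OE and 4323 in Ctrl. Macrophages held at least 20 UMIs of the complement genes C1qa, C1qb and C1qc together (1214 and 1176 cells). T cells held at least 2 of Cd3d, Cd3e and Cd3g together (416 and 208 cells). Median UMIs per cell were 25376 and 21437 in tumour cells, 11920.5 and 12676.5 in macrophages, and 6861 and 7096 in T cells. The 4 Y-linked host genes summed to 0.396 and 0.226 CPM (counts per 1e6 UMIs of the class) in tumour cells, against 149 and 95.2 in macrophages. Epithelial markers were uneven in tumour cells, with Krt8 at 538 and 87.5 CPM but no UMI of Epcam or Cldn7, and the fibroblast-associated gene Dcn stood at 2095 and 1686 CPM. Of the macrophages, 25 and 7 cells also met the tumour rule, and the libraries shared 7 barcodes.

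Many members are neighbours in the genome. The 44 genes lie on 14 chromosomes, and 14 pairs comprising 23 members are within 100 kb of each other in the mm10 GENCODE vM21 annotation. The lymphotoxin and TNF genes form the densest group on chromosome 17. Ltb runs from 35194439 to 35196320, Tnf from 35199381 to 35202007 and Lta from 35203165 to 35205351, with gaps of 3060 and 1157 bases. On chromosome 7 stand the TRAIL decoy receptor genes Tnfrsf22 (143634806 to 143649661) and Tnfrsf23 (143665809 to 143685872) next to Tnfrsf26. Tnfrsf22 and Tnfrsf23 are close copies: 25.5% of the 31-base words in Tnfrsf22 transcripts also occur in Tnfrsf23, so the counts of these 2 genes are uncertain where reads could have been split or dropped. The counting is not stated to use strand, so whether reads of Tnfsf13 and of its overlapping antisense RNA Tnfsf13os were kept apart is not known. Tnfsf12 and Tnfsf13 share exons with the read-through gene Tnfsfm13.

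RefSeq promoter windows on GRCm38.p6, whose chromosome coordinates are those of mm10, were available for 33 of the 44 members, and 5 are printed because their genes carry the contrasts described below. Ltb, Tnf and Lta are neighbours read in different cells, Tnfrsf23 was the tumour cell member with the lowest ratio between the libraries, and Fas is the receptor of the Fas ligand read in T cells. Each runs 5′ to 3′ along the gene's strand up to the base before its RefSeq start, which can differ by a few bases from the GENCODE start given above, and capitals mark a motif match. For Ltb the RefSeq start lies inside the GENCODE gene, and only the 182 bases before the GENCODE start are printed. The windows are chr17:35194257-35194438 (plus strand), chr17:35202008-35202257 (minus), chr17:35205352-35205601 (minus), chr7:143685876-143686125 (minus) and chr19:34290409-34290658 (plus).
Ltb: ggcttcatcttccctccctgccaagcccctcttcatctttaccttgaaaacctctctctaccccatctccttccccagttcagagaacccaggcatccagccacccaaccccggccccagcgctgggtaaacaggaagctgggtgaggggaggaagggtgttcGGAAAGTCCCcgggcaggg
Tnf: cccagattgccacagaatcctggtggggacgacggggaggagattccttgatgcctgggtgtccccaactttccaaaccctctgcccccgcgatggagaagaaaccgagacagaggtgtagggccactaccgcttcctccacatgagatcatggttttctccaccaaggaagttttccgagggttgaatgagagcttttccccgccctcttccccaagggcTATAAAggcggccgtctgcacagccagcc
Lta: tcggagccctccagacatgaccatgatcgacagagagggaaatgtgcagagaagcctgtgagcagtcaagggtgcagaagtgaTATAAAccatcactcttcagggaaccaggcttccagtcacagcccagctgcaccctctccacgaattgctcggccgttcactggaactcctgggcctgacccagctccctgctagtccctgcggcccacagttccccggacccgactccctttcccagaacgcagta
Tnfrsf23: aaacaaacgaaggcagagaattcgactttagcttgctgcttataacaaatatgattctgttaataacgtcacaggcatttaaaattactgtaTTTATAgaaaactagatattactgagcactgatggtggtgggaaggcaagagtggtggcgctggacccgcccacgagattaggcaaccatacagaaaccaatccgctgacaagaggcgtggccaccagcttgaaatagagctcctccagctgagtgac
Fas: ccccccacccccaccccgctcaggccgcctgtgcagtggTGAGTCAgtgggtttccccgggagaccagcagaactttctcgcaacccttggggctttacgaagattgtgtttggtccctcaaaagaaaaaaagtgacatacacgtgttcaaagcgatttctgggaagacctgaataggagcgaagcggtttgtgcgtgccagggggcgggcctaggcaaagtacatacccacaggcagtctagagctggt

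Motifs were searched on both strands of the 250 bases before each RefSeq start, also for Ltb, and they were picked after matches had been seen. An NF-kB-like pattern (GGG, any 3 bases, then TTCC) occurred in 4.65% of all 32851 windows and in the windows of 4 members, Ltb, Tnfrsf9, Tnfrsf25 and Eda2r. TGANTCA, an AP-1-like pattern, occurred in 6.75% of windows and in those of 6 members: Fas, Tnfrsf8, Tnfrsf9, Tnfsf13, Tnfsf13b and Tnfsf14. TATAAA occurred in 12.4% of windows and in those of 7 members, and in Tnf it lay 29 to 24 bases before the start. Lta held the same letters 167 to 162 bases before its start. Capitals in Ltb and Tnfrsf23 are matches on the opposite strand, the Fas pattern TGANTCA matches on either strand, and a match describes letters in the window, not a bound site.

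The families took a larger share of UMIs in T cells than in the other classes. Summed over all members, T cells gave 1925 CPM in RSPO3-OE and 1301 in Ctrl, macrophages 840 and 696, and tumour cells 462 and 465. The median cell held UMIs of 5 and 4 different members among tumour cells, 6 and 6 among macrophages, and 6 and 5 among T cells. A member was called measured in a class with at least 50 UMIs over both libraries. That held for 26 members in tumour cells, 24 in macrophages and 16 in T cells, for 9 members in all 3 classes and for 36 in at least 1. The other 8 were Cd40lg, Cd70, Lta, Tnfrsf8, Tnfrsf11b, Tnfrsf13c, Tnfrsf19 and Tnfsf18, of which only Tnfrsf19 had 0 UMIs in every class. The plot of levels shows that Tnfrsf1a, the main receptor of TNF, was read in all 3 classes, whereas Tnfrsf18, Fasl and Ltb were read mainly in T cells among the 3 classes.

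**Figure D1:**
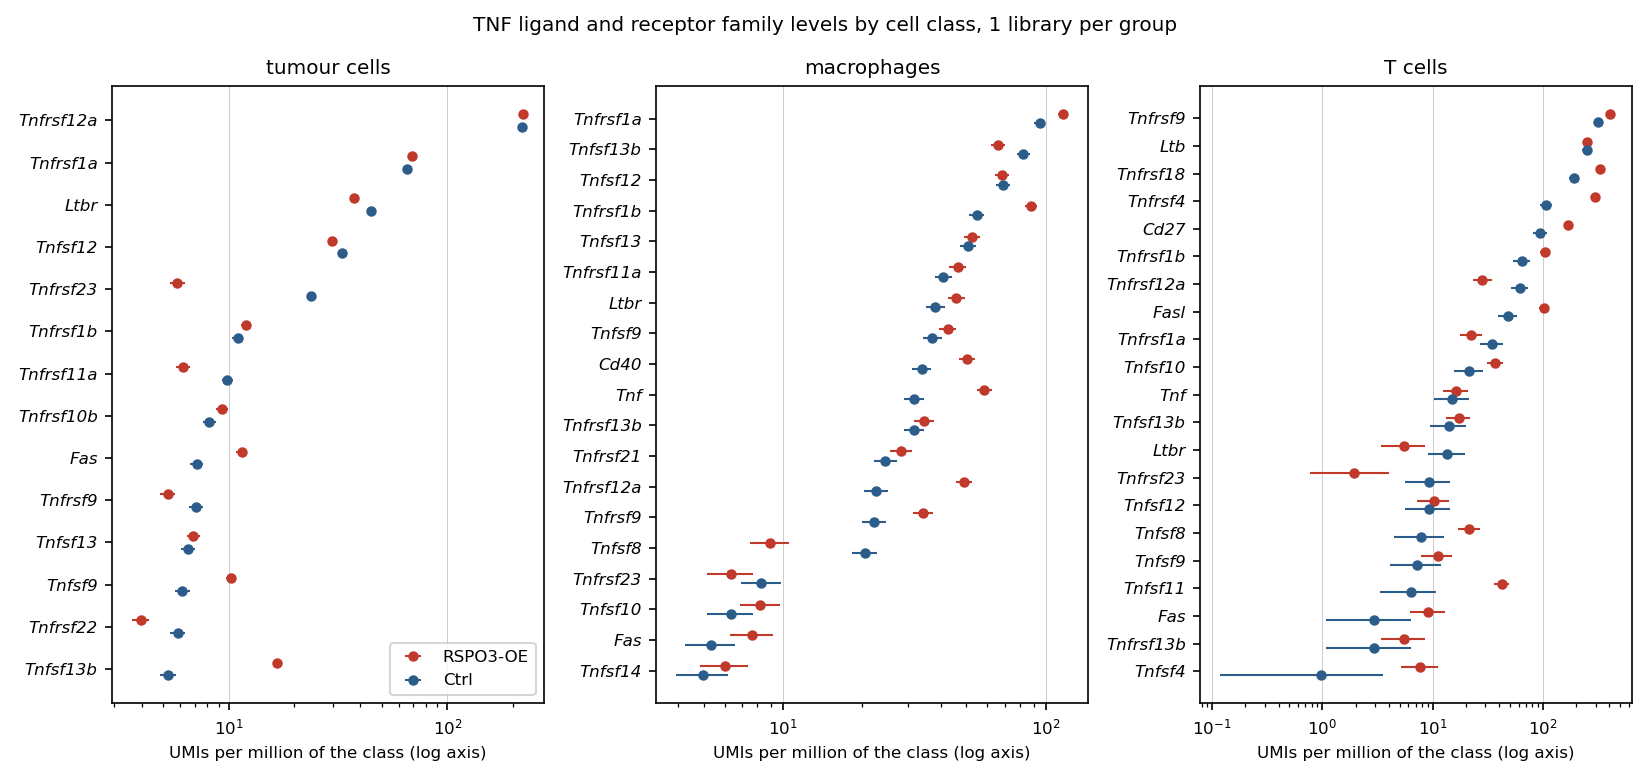
Level of each member with at least 5 CPM in either library, by cell class, in CPM on a log axis. Red points are RSPO3-OE, blue points Ctrl, and bars are exact Poisson 95% intervals of the counts; in T cells Tnfrsf4 stands at 296 CPM in RSPO3-OE and 107 in Ctrl with separate intervals, while Ltb at 251 and 249 overlaps.

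Differences between the libraries were counted at 1.5-fold. In tumour cells 7 of the 26 measured members (26.9%) stood at least 1.5-fold higher in RSPO3-OE, against 10.1% of all 13051 measured genes, and 3 (11.5%) at least 1.5-fold lower, against 14.4%. Macrophages had 5 of 24 members (20.8%) higher, against 10.2% of 10812 genes, and 1 (4.17%) lower, against 4.58%. In T cells 9 of 16 (56.3%) were higher, against 7.18% of 7912 genes, and 2 (12.5%) lower, against 8.77%. The T cell class held 3616063 UMIs in RSPO3-OE and 2062589 in Ctrl. Members and all other genes could reach 50 UMIs through 1 library alone. Such members were Tnfsf11 (153 and 13) and Tnfsf8 (77 and 16) in T cells and Tnfsf15 (66 and 10) in macrophages. In tumour cells they included Tnf (73 and 8), Tnfrsf17 (63 and 6) and, through Ctrl, Tnfsf4 (35 and 55). With every cell thinned to 2000 UMIs, higher members were 2 of 16 in tumour cells (12.5%, against 6.47% of all genes measured there), 2 of 15 in macrophages (13.3%, against 11.2%) and 4 of 9 in T cells (44.4%, against 9.05%). The macrophage share was thus near the background in thinned cells, where 15 members were measured instead of 24. Lower members in thinned cells were 2 of 16 (against 14.4%), 1 of 15 (against 3.65%) and 0 of 9 (against 4.17%). In T cells with no UMI of the tumour cell gene Hmga2, 5 of 13 were higher (38.5%, against 7.71%) and 0 lower (against 5.27%). Macrophages with no Hmga2 UMI had 7 of 24 higher (29.2%, against 8.55%) and 1 lower (against 5.15%). The median log2 ratio of RSPO3-OE over Ctrl over measured members was 0.11 in tumour cells, where that of all genes was -0.09. It was 0.23 in macrophages (all genes 0.05) and 0.64 in T cells (all genes -0.01).

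**Figure D2:**
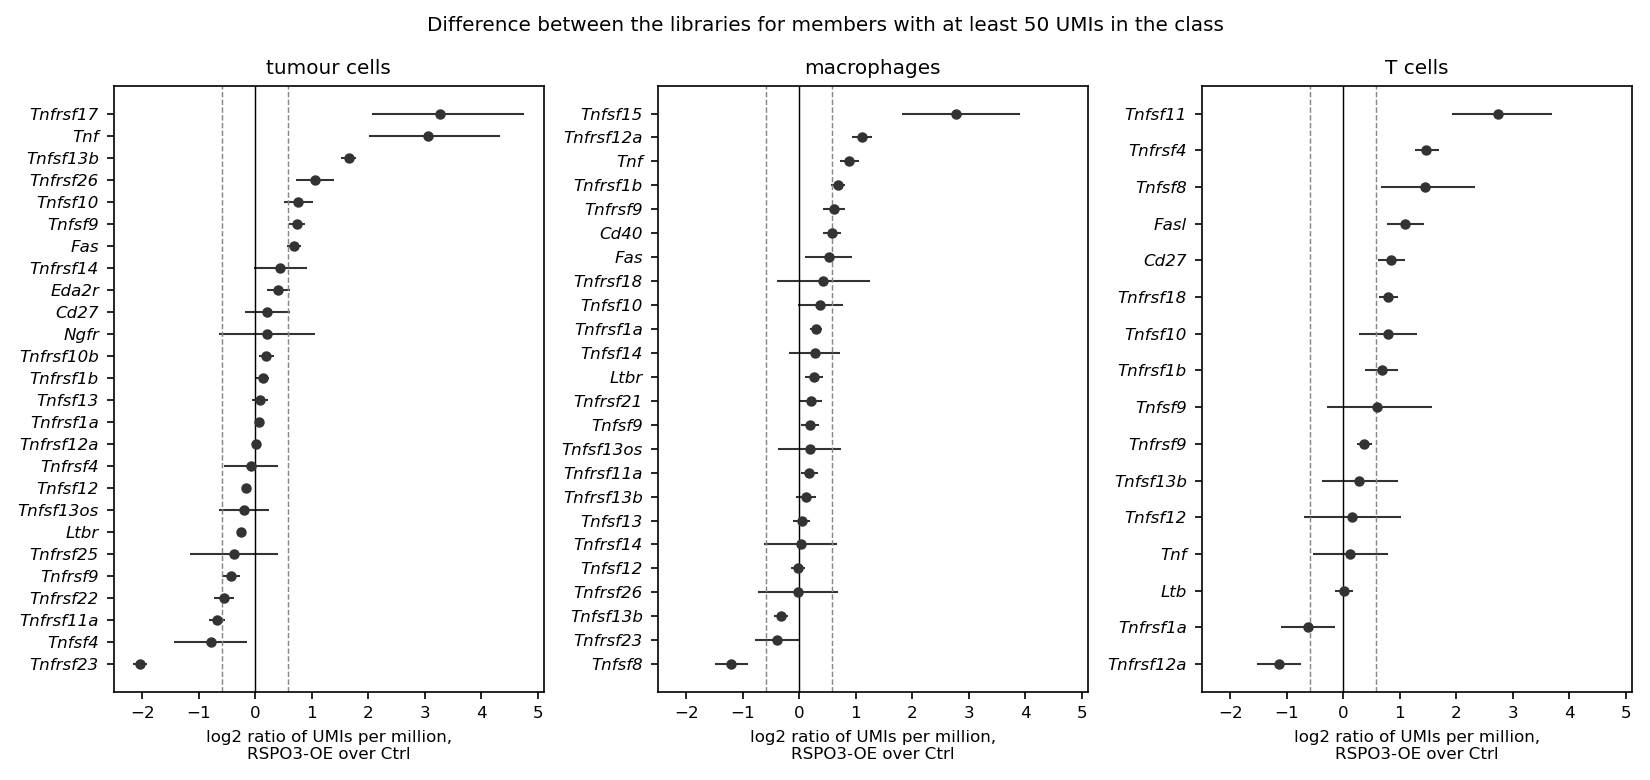
Log2 ratio of CPM, RSPO3-OE over Ctrl, for each member with at least 50 UMIs in the class; bars are exact binomial 95% intervals and dashed lines mark 1.5-fold. Tnfrsf23 at -2.03 lies farthest left in tumour cells, and 9 of the 16 T cell members lie right of the upper line.

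Among receptors of the tumour cells, those read in most cells were at similar levels in the libraries. Tnfrsf12a, the receptor of the cytokine TWEAK and a gene of wound repair, gave 222 CPM in RSPO3-OE and 220 in Ctrl (log2 0.01, -0.01 to 0.04). Tnfrsf1a gave 68.6 and 65.6 CPM (log2 0.07). Ltbr, the lymphotoxin beta receptor that drives the alternative NF-kB route, gave 37.6 and 44.7 CPM (log2 -0.25). The level of Tnfrsf12a overlapped between the libraries, and the 2 others differed by under 1.5-fold. The share of cells with a UMI was higher in RSPO3-OE for Tnfrsf12a (86.6% and 74.1%, or 31.3% and 26.7% thinned) and for Tnfrsf1a (81.2% and 73.5%, or 13.1% and 12.8% thinned). The second TNF receptor Tnfrsf1b (12.1 and 11.01 CPM) and the TRAIL death receptor Tnfrsf10b (9.33 and 8.15 CPM) were also close.

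Other tumour cell receptors differed. The decoy receptor Tnfrsf23, which binds TRAIL and carries no death domain, gave 5.83 CPM in RSPO3-OE and 23.8 in Ctrl, a log2 ratio of -2.03 (-2.16 to -1.91). It was lower in RSPO3-OE whether levels or cells were counted: 11.99% of RSPO3-OE cells and 27.4% of Ctrl cells held a UMI, or 1.09% and 4.68% with every cell thinned to 2000 UMIs. Its neighbour Tnfrsf22, with the same kind of product, gave 3.96 and 5.84 CPM (log2 -0.56), and Tnfrsf26 lay the other way at 2.14 and 1.03 CPM (log2 1.06). The 3 adjacent genes thus did not share a direction.

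Fas, the receptor through which Fas ligand kills, gave 11.5 CPM in RSPO3-OE tumour cells and 7.13 in Ctrl (log2 0.68, 0.56 to 0.82). Thinned to 2000 UMIs the share of cells with Fas was 2.41% and 1.99%, and the log2 ratio was 0.28, below 1.5-fold. The receptor RANK, Tnfrsf11a, gave 6.16 and 9.87 CPM (log2 -0.68), and Tnfrsf9, which encodes the costimulatory receptor CD137, gave 5.27 and 7.10 CPM (log2 -0.43). Both were lower in RSPO3-OE, Tnfrsf11a past 1.5-fold and Tnfrsf9 not. Eda2r, an ectodysplasin receptor, stayed under 5 CPM at 4.10 and 3.09.

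Tnfsf13b was the tumour cell ligand with the most UMIs among those past 1.5-fold. It encodes BAFF, the survival factor of B cells, and lies on chromosome 8 from 10006467 to 10039072. Tumour cells gave 16.6 CPM in RSPO3-OE and 5.28 in Ctrl, a log2 ratio of 1.65 (1.52 to 1.79), and 33.0% and 10.7% of cells held a UMI (3.08% and 1.09% thinned). The intervals of levels and of shares were far apart. Macrophages, which held more of it, went the other way (65.9 and 82.4 CPM), and C1qa in tumour cells stood at 0.205% and 0.157% of its macrophage level. The ratio was 1.61 in tumour cells with no C1q UMI.

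The other tumour cell ligands were lower or differed less. TWEAK, from Tnfsf12, gave 29.6 and 33.0 CPM (log2 -0.15), so this ligand and its receptor Tnfrsf12a were both read in tumour cells of both libraries at like levels. Tnfsf9, the ligand of CD137, gave 10.2 and 6.14 CPM (log2 0.74), and APRIL, from Tnfsf13, gave 6.90 and 6.499 CPM (log2 0.09). TRAIL, from the gene Tnfsf10, stood at 3.05 and 1.80 CPM (log2 0.76). Only Tnfsf9 and Tnfsf10 of these were past 1.5-fold, both higher in RSPO3-OE. Rare UMIs gave the highest ratios: Tnf had 73 and 8 UMIs in all tumour cells (log2 3.06, 2.01 to 4.33). The BAFF and APRIL receptor gene Tnfrsf17, a plasma cell marker, had 63 and 6 (log2 3.26, 2.06 to 4.76). Both were in under 1.5% of cells, and 1 RSPO3-OE cell alone held 12 Tnf UMIs. The OX40 ligand gene Tnfsf4, the third member past 1.5-fold on the lower side, had 35 and 55 UMIs.

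Interferon-induced Gbp2 divided the tumour cells differently in the libraries. This split was chosen after values had been seen. Cells with at least 3 Gbp2 UMIs numbered 3130 of 4229 in RSPO3-OE and 1280 of 4323 in Ctrl, and cells with none 381 and 1587. Tnfsf10 did not differ beyond counting error within the Gbp2 group. It gave 3.74 CPM in RSPO3-OE and 3.95 in Ctrl among cells with at least 3 Gbp2 UMIs, with a log2 ratio of -0.08 (-0.37 to 0.22), and 3 and 20 UMIs in all cells with none. Fas gave 12.6 and 11.01 CPM with at least 3 Gbp2 UMIs (log2 0.19) and 8.27 and 4.46 CPM with none (log2 0.89). Within the Gbp2 group Fas was therefore below 1.5-fold. Tnfsf13b kept its distance in both groups, at 17.5 and 6.44 CPM with Gbp2 (log2 1.44) and 14.0 and 4.46 CPM without (log2 1.65). Tnfrsf23 was also lower in RSPO3-OE on both sides (5.09 and 20.5 CPM with Gbp2, 10.4 and 26.4 without). Tnfrsf9 lay in opposite directions, at 3.84 and 8.38 CPM with Gbp2 and 12.6 and 6.62 CPM without; that opposition was not tested.

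The transgene's own transcript did not order the members the same way. Of the RSPO3-OE tumour cells, 3295 held no Rspo3 UMI, 586 held 1 to 9 and 348 held at least 10. Tnfsf13b gave 16.8, 16.6 and 15.1 CPM in these groups, with overlapping intervals. Fas gave 12.2, 10.1 and 7.70 CPM, and Tnfrsf23 gave 5.19, 6.72 and 9.44 CPM. Thus the cells with the most Rspo3 stood nearer to Ctrl for Fas and Tnfrsf23. The groups differed in depth, with medians of 24467, 28014.5 and 28747.5 UMIs, and the part of depth in these values was not tested.

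In macrophages the receptors past 1.5-fold were all higher in RSPO3-OE. Tnfrsf12a gave 49.0 CPM in RSPO3-OE and 22.7 in Ctrl (log2 1.11, 0.93 to 1.29). Tnfrsf1b, the TNF receptor without a death domain, gave 87.9 and 54.6 CPM (log2 0.69, 0.56 to 0.81), with UMIs in 60.7% and 47.0% of cells. Tnfrsf9 gave 34.2 and 22.3 CPM (log2 0.62), but from 9.72% and 8.16% of cells, with up to 37 UMIs in 1 cell, and its log2 ratio was 0.57, below 1.5-fold, under median-of-ratios scaling. Tnfrsf12a is also the member with the most UMIs in tumour cells, and Hmga2 stood in macrophages at 4.46% and 2.59% of its tumour cell level. The macrophages with no Hmga2 UMI, 1124 and 1130 cells, gave 38.7 and 19.4 CPM of Tnfrsf12a (log2 0.996), so the ratio was nearly as large there.

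Cd40, which receives T cell help and raises antigen presentation, lay just under 1.5-fold at 50.4 and 33.8 CPM (log2 0.58, 0.42 to 0.74). Tnfrsf1a gave 116.6 and 94.9 CPM (log2 0.30), Tnfrsf11a, whose product RANK drives osteoclast formation, 46.3 and 40.9 CPM (log2 0.18), and Ltbr 45.7 and 38.1 CPM (log2 0.26). TACI, the BAFF and APRIL receptor encoded by Tnfrsf13b, gave 34.4 and 31.5 CPM. The death domain receptor gene Tnfrsf21 gave 28.2 and 24.5 CPM, and Fas 7.62 and 5.32. All of these were higher in RSPO3-OE by less than 1.5-fold, and the interval of Tnfrsf13b included equality. Tnfrsf23 was lower in RSPO3-OE at 6.32 and 8.26 CPM (log2 -0.39, -0.78 to 0.00), an interval that reaches equality, and in macrophages with no Hmga2 UMI the log2 ratio was 0.13.

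Macrophage ligands differed in both directions. Tnf, the inflammatory cytokine itself, gave 58.5 CPM in RSPO3-OE and 31.5 in Ctrl (log2 0.89, 0.73 to 1.05), and 33.1% and 22.4% of macrophages held a UMI (9.39% and 7.03% thinned). In thinned cells the log2 ratio of Tnf was 0.53, below 1.5-fold. Tnfsf8, the CD30 ligand, was the only member past 1.5-fold on the lower side, at 8.93 and 20.5 CPM (log2 -1.20, -1.50 to -0.90) and in 9.14% and 20.6% of cells. Tnf and Tnfsf8 thus differed in opposite directions in the same cells.

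The remaining macrophage ligands were closer. TWEAK (Tnfsf12) gave 68.2 and 69.0 CPM and APRIL (Tnfsf13) 52.4 and 50.9 CPM, both with intervals that include equality. BAFF (Tnfsf13b), at 65.9 and 82.4 CPM, was lower in RSPO3-OE (log2 -0.32, -0.44 to -0.20). The CD137 ligand Tnfsf9 gave 42.4 and 37.1 CPM, TRAIL (Tnfsf10) 8.21 and 6.32 CPM, and LIGHT (Tnfsf14), a ligand of Ltbr, 5.99 and 4.94 CPM. These 3 were slightly higher in RSPO3-OE, and for Tnfsf10 and Tnfsf14 the intervals included equality. Tnfsf15, which encodes the T cell costimulator TL1A, had 66 and 10 UMIs (log2 2.78), but 1 RSPO3-OE cell held 26 of them, and the log2 ratio was 2.21 without the richest cell of each library.

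Macrophages also differed among themselves by Cxcl9, a chemokine gene induced by interferon gamma. At least 5 Cxcl9 UMIs were held by 438 of 1214 RSPO3-OE macrophages and by 219 of 1176 in Ctrl. BAFF and CD40 went with Cxcl9 in both libraries. Tnfsf13b gave 84.3 CPM in RSPO3-OE cells with Cxcl9 and 53.9 in those below 5 UMIs, and 109.5 and 75.4 in Ctrl. Cd40 gave 62.1 and 42.7 CPM in RSPO3-OE, and 57.9 and 27.5 in Ctrl. Among cells with Cxcl9 the Cd40 levels of the libraries overlapped (log2 0.10, -0.16 to 0.36), while below 5 UMIs they differed by a log2 ratio of 0.63.

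Other members were lower in cells with Cxcl9. Tnfrsf9 gave 9.53 CPM with Cxcl9 and 50.4 without in RSPO3-OE, and 8.49 and 25.9 in Ctrl. Tnfrsf1b gave 73.7 and 97.2 CPM in RSPO3-OE and 47.6 and 56.4 in Ctrl. Tnfsf9 gave 32.5 and 48.8 CPM in RSPO3-OE and 24.0 and 40.5 in Ctrl. All 3 were lower in the cells with Cxcl9 in both libraries, but for Tnfrsf1b in Ctrl the intervals overlapped (40.5 to 55.7 and 52.4 to 60.7). The log2 ratio of Tnfrsf9 between the libraries was 0.96 (0.76 to 1.17) below 5 Cxcl9 UMIs and 0.17 (-0.51 to 0.87) with Cxcl9, intervals that overlap, and their difference was not tested. Tnf and Tnfsf8 kept their directions on both sides of the split, Tnf at log2 0.90 and 0.98 and Tnfsf8 at -1.47 and -1.03. Cells with Cxcl9 were deeper, with median UMIs of 12906 against 11394 in RSPO3-OE and 14008 against 12332 in Ctrl.

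**Figure D3:**
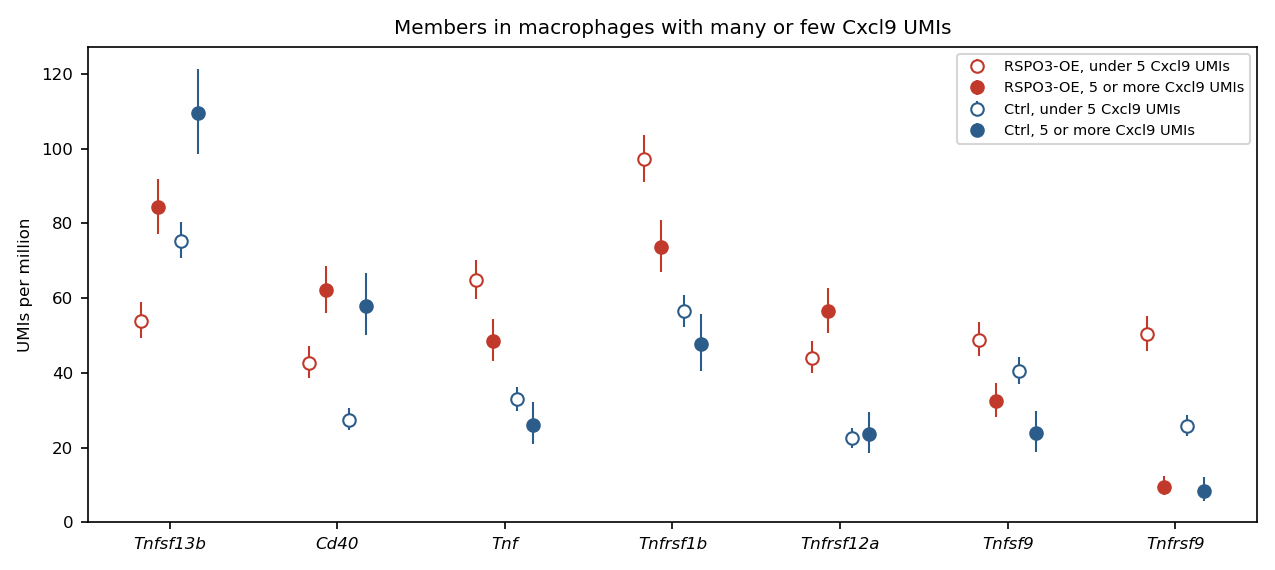
CPM of 7 members in macrophages with at least 5 Cxcl9 UMIs (filled) or fewer (open), with exact Poisson 95% intervals; red is RSPO3-OE and blue Ctrl. Tnfsf13b and Cd40 are higher in filled points of both libraries, and Tnfrsf9 is higher in open points, at 50.4 CPM in RSPO3-OE and 25.9 in Ctrl.

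T cells carried the costimulatory receptors. OX40, encoded by Tnfrsf4 and induced by antigen, gave 296 CPM in RSPO3-OE and 107 in Ctrl (log2 1.47, 1.26 to 1.69), and 57.5% and 34.1% of T cells held a UMI (32.0% and 15.1% thinned). GITR, from its neighbour Tnfrsf18, gave 329 and 190 CPM (log2 0.79, 0.63 to 0.96). Cd27, which sustains T cell survival, gave 169 and 93.6 CPM (log2 0.85, 0.62 to 1.09). Tnfrsf1b gave 103 and 64.5 CPM (log2 0.68), and CD137, from Tnfrsf9, gave 404 and 312 CPM (log2 0.37, 0.24 to 0.51). All 5 stood higher in RSPO3-OE with separate intervals, and all but Tnfrsf9 passed 1.5-fold. Cd27, Tnfrsf18 and Tnfrsf1b were below 1.5-fold in thinned cells (log2 0.50, 0.53 and 0.44), and Tnfrsf18 and Tnfrsf1b also in T cells with no Hmga2 UMI (0.57 and 0.50).

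Among T cell ligands the death ligand and RANKL were higher in RSPO3-OE. Fasl, which encodes Fas ligand, gave 103 CPM in RSPO3-OE and 48.0 in Ctrl (log2 1.10, 0.77 to 1.43), with UMIs in 52.6% and 35.6% of cells (21.2% and 13.2% thinned). RANKL, from Tnfsf11, had 153 and 13 UMIs, or 42.3 and 6.30 CPM (log2 2.75, 1.93 to 3.69), in 16.3% and 3.85% of cells. TRAIL (Tnfsf10) gave 36.8 and 21.3 CPM (log2 0.79, 0.28 to 1.31), and a log2 ratio of 0.51 in T cells with no Hmga2 UMI. In macrophages Fasl gave 0.586 and 0.188 CPM, from 9 and 3 UMIs. Lymphotoxin beta (Ltb), by contrast, was the same at 251 and 249 CPM (log2 0.01, -0.14 to 0.17).

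Fewer UMIs stood behind the other T cell ligands. Tnf gave 16.3 and 15.03 CPM, Tnfsf13b 17.1 and 14.1, and Tnfsf12 10.2 and 9.21, each with an interval of the ratio that includes equality. Tnfsf9 gave 11.1 and 7.27 CPM, a log2 ratio of 0.61 whose interval (-0.28 to 1.57) also includes equality although it counts among the 9. Tnfsf8 gave 21.3 and 7.76 CPM (log2 1.46), but 5.29% of RSPO3-OE and 6.73% of Ctrl T cells held a UMI. It had 77 and 16 UMIs, and 1 RSPO3-OE cell held 14 of the 77. In CD8 cells its log2 ratio was -1.06, from under 50 UMIs over both libraries. Below 50 UMIs, and so in no count, were Fas (33 and 6 UMIs), Tnfsf4 (28 and 2), Tnfrsf13b (20 and 6), Ltbr (20 and 28) and Tnfrsf23 (7 and 19), which were the others to reach 5 CPM. Cd40lg, the ligand of CD40, had 13 UMIs in RSPO3-OE T cells and 0 in Ctrl, where a floor of 3 counts is 1.45 CPM.

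Tumour cell RNA in the T cell droplets moved with some of these values. Hmga2 stood in T cells at 7.96% of its tumour cell level in RSPO3-OE and 21.0% in Ctrl, from 21 and 18 cells that held 12.3% and 28.2% of the class's UMIs. The 2 members on the lower side in T cells, Tnfrsf12a (28.2 and 62.1 CPM, log2 -1.14) and Tnfrsf1a (22.4 and 34.4 CPM, log2 -0.62), are both read in tumour cells. Of the Tnfrsf12a UMIs, 69.6% and 93.8% lay in those cells. In T cells with no Hmga2 UMI, Tnfrsf12a was at 9.78 CPM in RSPO3-OE and 5.40 in Ctrl, the reverse direction (log2 0.86). Of its 102 UMIs in RSPO3-OE and 128 in Ctrl, 71 and 120 lay in cells with Hmga2. The UMIs left were too few for Tnfrsf12a to count as measured there, so the reversal is uncertain. The 5 of 13 members at least 1.5-fold higher there (38.5%, against 7.71% of all genes) were Tnfsf11 (log2 2.43), Tnfrsf4 (1.21), Tnfsf8 (1.15), Fasl (0.84) and Cd27 (0.64). The calls of Tnfrsf18 (0.57), Tnfrsf1b (0.50) and Tnfsf10 (0.51) ended there. Tnfrsf9 then gave 445 and 409 CPM (log2 0.12), and Ltb had a log2 ratio of -0.24. Of the macrophage genes, C1qa in T cells stood at 2.37% and 2.35% of its macrophage level, and Lyz2 at 1.67% and 2.19%. In CD8 T cells C1qa stood at 1.97% and 2.59%.

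Subsets of T cells differed in which members they held. Cells with Cd8 and no Cd4 numbered 335 in RSPO3-OE and 180 in Ctrl, those with Cd4 and no Cd8 31 and 5, and those with the regulatory factor Foxp3 33 and 8. Within the CD8 cells Tnfrsf4 gave 186 and 58.2 CPM, Fasl 118 and 51.7, and Tnfsf11 31.3 and 4.31. The 3 directions were thus those of all T cells. The 31 CD4 cells of RSPO3-OE gave 1317 CPM of Tnfrsf4, 997 of Tnfrsf18, 218 of Tnfsf11 and 134 of Tnfsf8. They held 30 of the 77 Tnfsf8 UMIs of all RSPO3-OE T cells, and in CD8 cells alone Tnfsf8 had the reverse direction (3.099 and 6.47 CPM, log2 -1.06). The Foxp3 cells of RSPO3-OE gave 1236 CPM of Tnfrsf4, 785 of Tnfrsf18 and 203 of Tnfrsf1b. With 5 and 8 such cells in Ctrl, no ratio is given for these subsets.

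CD8 cells with at least 5 UMIs of Gzmd, Gzme, Gzmf and Gzmg together, 101 in RSPO3-OE and 35 in Ctrl, were compared with the rest. Tnfrsf4 gave 240 and 54.0 CPM in the granzyme group and 158 and 59.8 in the other cells. Fasl gave 119 and 25.1 CPM in the granzyme group and 118 and 62.1 in the rest. In RSPO3-OE the level of Fasl was thus the same in both groups of CD8 cells, while in Ctrl it was lower in the granzyme group. The 35 Ctrl cells held 13 Fasl UMIs, and these comparisons have no replicate check.

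**Figure D4:**
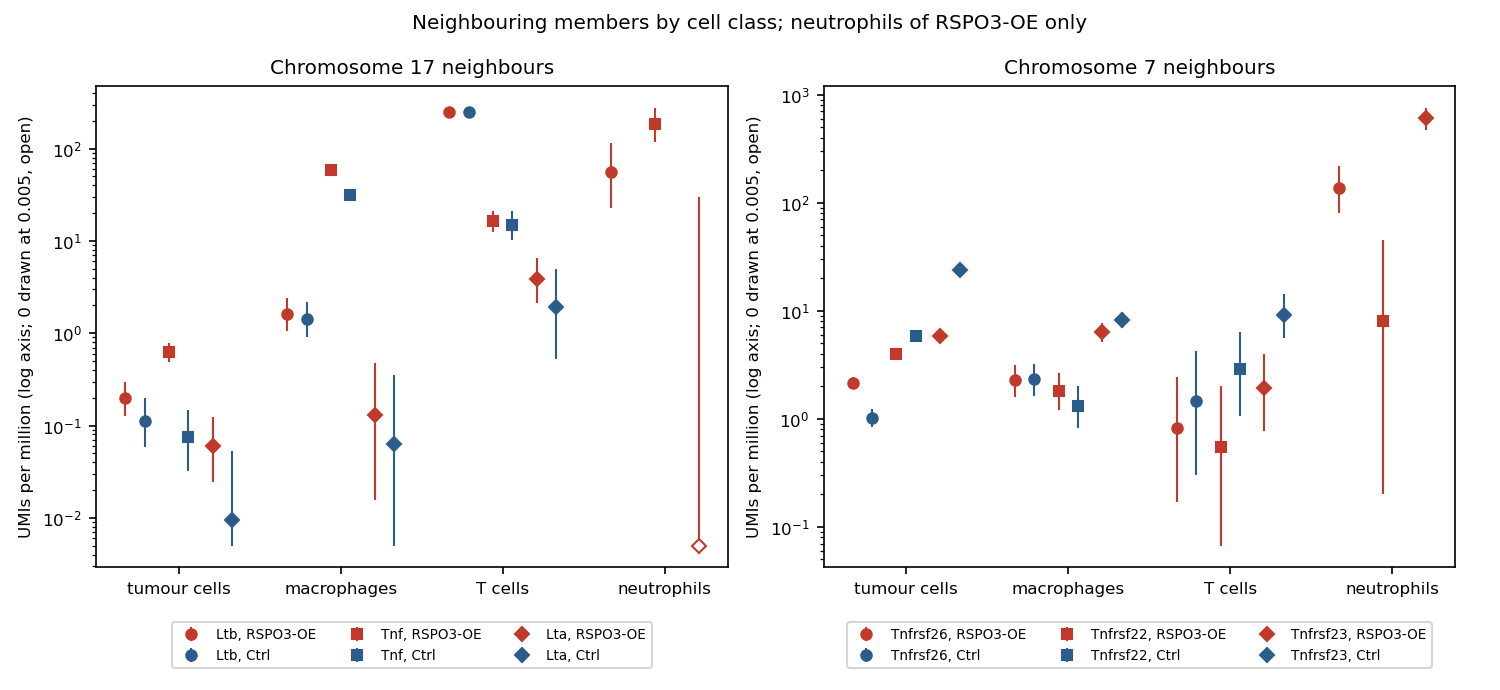
CPM of 3 neighbouring members on chromosome 17 and 3 on chromosome 7 in each cell class, on log axes with exact Poisson 95% intervals; red is RSPO3-OE and blue Ctrl. Tnf is high in macrophages and neutrophils and Ltb in T cells, and Tnfrsf23 in neutrophils (602 CPM) exceeds its level in tumour cells of either library.

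Neighbouring genes were read in different cells, as the plot of neighbours shows. Ltb gave 251 and 249 CPM in T cells but 1.63 and 1.44 in macrophages. Tnf, 3060 bases away, gave 58.5 and 31.5 CPM in macrophages and 16.3 and 15.03 in T cells. Lta was rare everywhere, with 14 and 4 UMIs in T cells. The small class of neutrophils (S100a8 and S100a9 together at least 50 UMIs, 68 cells in RSPO3-OE and 13 in Ctrl) held Tnfrsf23 at 602 CPM (473 to 754) in RSPO3-OE. It also gave 337 CPM of Tnfrsf1b, 281 of Tnfrsf1a, 185 of Tnf, 136 of Tnfrsf26 and 128 of Fas there. These cells were shallow, with a median of 1623.5 UMIs, and the 13 Ctrl cells held 10 Tnfrsf23 UMIs.

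Genes downstream of the receptors were read from 4 lists chosen with earlier results of these data known, so their directions are not independent evidence. Of all measured genes, 10.1% were higher and 14.4% lower in tumour cells, 10.2% and 4.58% in macrophages, and 7.18% and 8.77% in T cells. Death adaptors and caspases were nearly level in tumour cells: of 12 measured, 0 were at least 1.5-fold higher and 0 lower, with a median log2 ratio of -0.25. The necroptosis gene Mlkl (log2 0.58) and the adaptor kinase Ripk1 (0.51) were highest, and the inhibitors of apoptosis Xiap (-0.57) and Birc2 (-0.49) lowest. In macrophages 2 of 13 were higher, led by Birc3 (0.83), and 0 lower, with Tradd (-0.55) and Bid (-0.50) lowest. T cells had 1 higher, Birc2 at 165 and 85.8 CPM (0.95, with Birc3 next at 0.54), and 1 lower, Bid (-1.06, with Ripk3 next at -0.57), of 12. Their medians were 0.32 in macrophages and -0.04 in T cells.

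TRAF proteins and the kinases they recruit were level in tumour cells, with 0 of 19 higher and 1, Tab1 (log2 -0.65), lower. Their median log2 ratio there was 0.00, with Map3k5 (0.57) and Rnf31 (0.37) highest and Traf2 (-0.49) and Chuk (-0.30) lowest among genes of at least 10 CPM. In macrophages 5 of 19 were higher and 1, again Tab1 (-0.60), lower. Traf1, itself induced by NF-kB, led at 27.7 and 11.3 CPM (1.29). Among genes of at least 10 CPM Traf3 (0.61) followed, and Traf2 (-0.11) and Map3k5 (0.02) stood lowest. Below that level Traf3ip2 (0.997) and Tab3 (0.65) also lay above Traf3. In T cells 4 of 15 were higher, led by Map3k14 (0.79), the kinase of the alternative NF-kB route, and Traf1 (0.63), and 0 lower, with Traf5 (-0.46) and Tab2 (-0.26) lowest. The medians were 0.27 in macrophages and 0.19 in T cells.

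NF-kB subunits and feedback inhibitors included several members past 1.5-fold on the higher side in each class. In tumour cells 7 of 17 were higher (all genes 10.1%) and 0 lower. Tnip3 had the highest ratio, at 1.47 and 0.226 CPM (log2 2.70). Among genes of at least 10 CPM the deubiquitinase gene Tnfaip3 led at 79.8 and 28.8 CPM (log2 1.47), then the subunit Rel at 47.7 and 18.4 (1.37). Nfkbie (-0.51) and Tnip2 (-0.23) were lowest. In macrophages 8 of 17 were higher (all genes 10.2%) and 0 lower, led by Tnfaip3 at 129 and 37.0 CPM (1.80) and Rel at 164 and 60.9 (1.43). Tnip1 (-0.07) and Nfkbib (0.04) were lowest. In T cells 5 of 16 were higher (all genes 7.18%) and 0 lower, led by Rel at 145 and 44.6 CPM (1.70) and Zc3h12a (1.41), with Rela (0.09) and Nfkbib (0.12) lowest. The medians were 0.32 in tumour cells, 0.56 in macrophages and 0.37 in T cells.

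Textbook NF-kB targets were counted in the same way. Of 21 measured in tumour cells 13 were higher (all genes 10.1%) and 1 lower (all genes 14.4%), from the chemokines Cxcl2 (23.7 and 3.17 CPM, log2 2.90) and Ccl7 (2.57) to Vcam1 (-0.51) and Mmp9 (-0.68). Macrophages had 12 of 18 higher (all genes 10.2%) and 0 lower, from Cxcl1 (2.54) and Ptgs2 (2.32) to Plau (0.13) and Bcl2a1b (-0.20). T cells had 7 of 17 higher (all genes 7.18%) and 1 lower, from Cxcl2 (4.01) and the cytokine Csf2 (3.01) to Csf1 (-0.52) and Vcam1 (-2.15). The medians of the targets were 0.93, 0.89 and 0.46 in the 3 classes. Cxcl2 is a macrophage transcript here, at 1519 CPM in RSPO3-OE macrophages, and its part in the T cell value was not tested. Vcam1, at 16.3 CPM in RSPO3-OE and 72.2 in Ctrl T cells, gave 141 and 200 CPM in tumour cells. Csf1 gave 59.2 and 78.2 CPM in tumour cells. The part of tumour cell RNA in the T cell values of these 2 genes was not tested. Many of these genes also answer to signals other than TNF.

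Tnfrsf9 lay in few cells of 2 classes other than T cells, and the cells that held it were compared with those that did not. The minimum UMIs were chosen after values had been seen, and genes were ranked by the smaller of the 2 libraries' folds, so that each is raised in both by that choice. Tumour cells with at least 2 Tnfrsf9 UMIs, 120 in RSPO3-OE and 125 in Ctrl, gave 77.5 and 25.4 CPM of Nos2, the inducible nitric oxide synthase, against 4.58 and 1.15 in tumour cells with no Tnfrsf9. Ero1l, an oxidase of protein folding induced by low oxygen, was 8.37-fold and 5.29-fold higher, and the haem oxygenase gene Hmox1 10.0-fold and 5.15-fold. The glucose transporter gene Slc2a1 was 4.02-fold and 3.55-fold higher. The complement gene C3 was 4.25-fold and 4.88-fold higher. Depth differed in unlike directions, with a median of 22161 UMIs against 25179 in RSPO3-OE and 26038 against 20704 in Ctrl.

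Macrophages with at least 3 Tnfrsf9 UMIs, 47 and 43 cells, gave 2207 and 1586 CPM of the elastase gene Mmp12, against 140 and 119 in macrophages with none. Nos2 was 8.71-fold and 7.01-fold higher there. The oxygen sensor gene Egln3 was 5.50-fold and 5.78-fold higher, and the lipid droplet gene Hilpda 4.63-fold and 4.27-fold. Nos2 was listed for both classes. T cell RNA in the macrophages was low, with Cd3e at 0.338% and 0.206% of its T cell level.

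**Figure D5:**
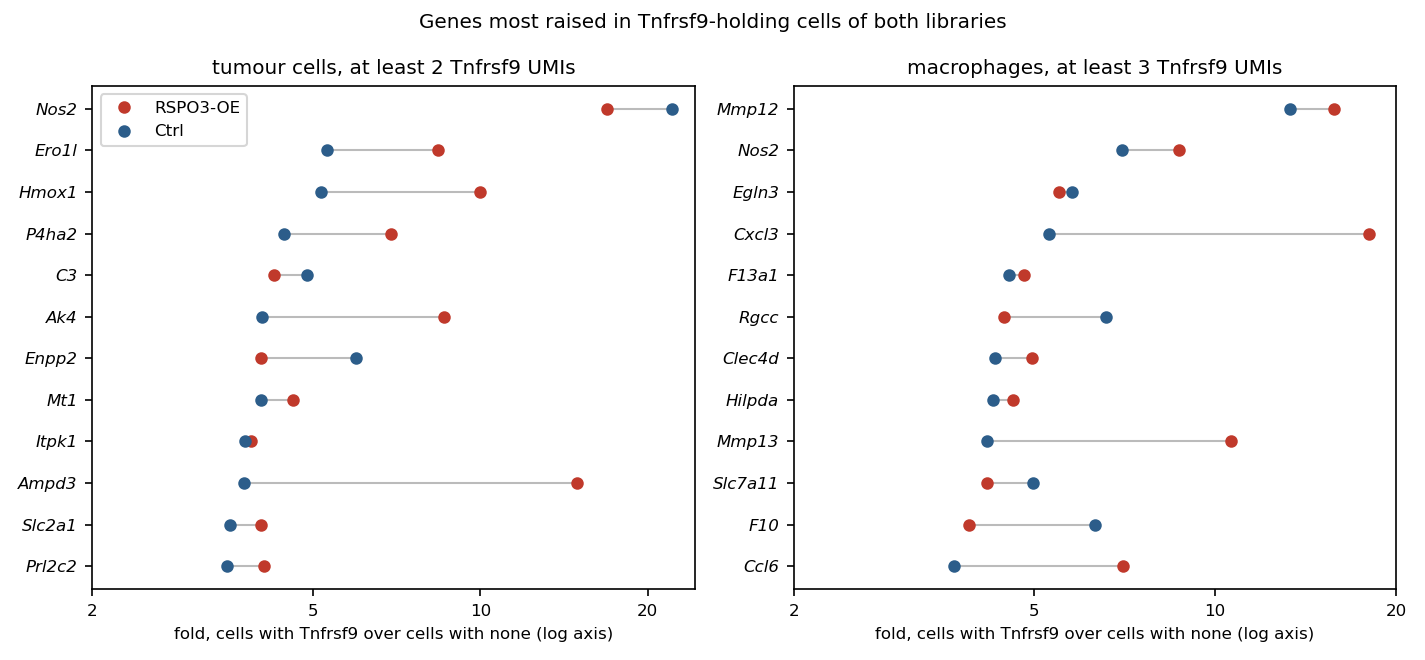
Fold between cells with Tnfrsf9 UMIs and cells with none, on a log axis, for the 12 genes highest by the smaller of the 2 folds in tumour cells and in macrophages; red is RSPO3-OE and blue Ctrl. Nos2 stands at 16.9-fold and 22.2-fold in tumour cells, and Mmp12 at 15.7-fold and 13.3-fold in macrophages.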

How the data were processed

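For each of 2 droplet libraries the authors deposited a matrix of unnormalized UMI counts, with genes against barcodes. The submitters' processing notes name Cell Ranger 3.0.1 and mm10. The matrix header gives software version 3.1.0. RSPO3-OE had 7314 barcodes with 155615189 UMIs and Ctrl 7301 with 143881763. Cells were required to have at least 200 genes and at most 20% mitochondrial UMIs (150 and 311 failed). Those marked as doublets by Scrublet in scanpy 1.11.5 at an expected rate of 0.05 (171 and 95) were left out, leaving 6993 and 6895 cells. Groups were taken from the genotype labels.

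CPM is a member's UMIs in a class of 1 library, per 1e6 UMIs of that class. Intervals are exact Poisson for levels, exact binomial for ratios and exact Clopper-Pearson for shares. A sum of 0 was replaced by 3 counts. Where cells with and without a member were compared, any sum under 3 in the cells without it was set to 3. Python 3.11.15, numpy 2.4.6, scipy 1.17.1 and pandas 2.3.3 were used, and the steps were tested on simulated data. Cells meeting 2 class rules counted in both classes.

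Members, lists and class rules were chosen with earlier results of these data known. Members with at least 50 UMIs in a class are given where they reach 5 CPM, and from each list the 2 highest and 2 lowest ratios among genes of at least 10 CPM. A gene of the death list that this rule names is not reported here. Other genes were named after their values were seen. Results were recomputed under 13 other settings of scaling, thinning, cell filters, class rules and minimum UMIs, and under 2 more chosen after seeing the data.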

Additional observations from a re-analysis of the deposited data

Results flagged for a closer look

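A pair of members had opposite differences between the libraries in 2 cell classes, and the opposition itself was not tested, since each group has 1 library. Tnfsf8, the CD30 ligand gene, had a log2 ratio of RSPO3-OE over Ctrl of -1.20 in macrophages and 1.46 in T cells. In CD8 T cells alone it was -1.06, the direction of the macrophages. Tnfrsf12a, the TWEAK receptor gene, had a log2 ratio of 1.11 in macrophages and -1.14 in T cells. In T cells with no Hmga2 UMI it was 0.86, the direction of the macrophages, but from fewer UMIs than the minimum for a measured member.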

How the results depend on the processing

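The median log2 ratios kept their sign in all 3 classes under every setting run. Median-of-ratios scaling left every count within 1.5 times its value. Thinning each cell to 2000 UMIs left 2 higher members in tumour cells (of 16 measured), 2 in macrophages (of 15), and 4 higher and 0 lower in T cells (of 9). Keeping doublets gave 8 higher members in macrophages and 0 lower in T cells. Averaging each cell's own CPM gave 1 lower member in T cells. A minimum of 20 UMIs gave 11 higher members in tumour cells and 4 lower in T cells, and one of 200 UMIs gave 5 higher and 1 lower in T cells. In T cells with no Hmga2 UMI, an alternative added after seeing the data, 5 were higher and 0 lower. Fewer UMIs or fewer genes tested enter by construction in thinning and in the minimum of 200; for the others the cause was not tested. Counted as reversed were 2 single ratios, both in T cells: Tnfsf8 among CD8 cells (-1.06) and Tnfrsf12a without Hmga2 (0.86). Both reversed values rest on fewer UMIs than the minimum for a measured member. Ratios under 1.5-fold that changed sign were not counted as reversed. Tnfrsf23 in macrophages gave 6.32 CPM in RSPO3-OE and 8.26 in Ctrl, but 6.80 and 6.22 without Hmga2. Ltb in T cells also changed sign without Hmga2. Apart from the 2 reversed, 21 ratios moved and 169 did not in T cells. The counts were 11 and 229 in macrophages, and 23 and 237 in tumour cells. No paired analysis was possible because each group has 1 library, and none could be left out. Shares of under 1% of thinned cells rest on few UMIs.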

Other observations

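Further members were followed into the cells that held them, with minimum UMIs chosen after values had been seen and no test. Genes were ranked by the smaller of the 2 libraries' folds, so that each is raised in both by that choice. Macrophages with at least 3 Tnf UMIs (106 in RSPO3-OE, 41 in Ctrl) held Ifnb1, the interferon beta gene, at 27.2 and 50.9 CPM, against 0.401 and 0.247 in macrophages with no Tnf. In cells with none of a member, sums under 3 were set to 3 counts. The Ifnb1 levels without Tnf are at or near that floor, so the size of this contrast is uncertain. In macrophages with at least 3 Tnf UMIs the chemokine genes Ccl4 (5.52-fold and 6.37-fold) and Ccl3 (6.26-fold and 4.18-fold) were also higher. Macrophages with Tnfsf8 (111 and 242 cells) had Ifit1bl1 2.74-fold and 3.66-fold higher, Usp18 2.27-fold and 2.04-fold, and the member Tnfsf10 2.96-fold and 2.34-fold. Tumour cells with at least 2 Tnfrsf23 UMIs (106 and 435 cells) had more Ccnd2 (3.05-fold and 2.33-fold), a cyclin gene, and more Apcdd1 (3.11-fold and 2.20-fold), a Wnt inhibitor. T cells with at least 3 Tnfrsf4 UMIs (125 and 18 cells) had more of the granzymes Gzmc (7.01-fold and 9.81-fold) and Gzme (3.60-fold and 8.22-fold) and of the transcription factor Maf (5.87-fold and 14.5-fold). Their median depth was 9556 UMIs against 5950 in T cells with no Tnfrsf4 in RSPO3-OE, and 5885 against 6617 in Ctrl. The Ctrl folds rest on 18 cells. In Ctrl CD8 cells split by Gzmd, Gzme, Gzmf and Gzmg, Tnfrsf4 was not higher in the granzyme group.

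NK cells (32 in RSPO3-OE and 21 in Ctrl) shared receptors with the T cells, giving 502 and 464 CPM of Tnfrsf9 and 167 and 98.5 CPM of Tnfrsf18. Their Fasl was at 131 CPM (91.7 to 181) in RSPO3-OE and 35.0 in Ctrl. Monocytes (198 and 50 cells) gave 69.4 and 137 CPM of Tnfrsf1b, and 138 and 23.7 CPM of Tnfrsf12a. Beside the Tnfrsf12a value, Hmga2 in monocytes stood at 119 and 7.91 CPM, and its part was not tested.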
